A study of Homo sapiens with 4 samples.

Results

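The GPR genes are named with the symbol GPR and a number, and most encode G protein-coupled receptors that were found by sequence before any ligand was known. They were measured in A549, an established human lung adenocarcinoma cell line. Members were taken from the platform annotation as probe sets with a single symbol made of GPR, digits and at most 1 letter with an optional digit, with 1 probe set per gene. This gave 67 of the 17687 genes measured. They were selected on their symbol, and split by their mean level over the 4 arrays into 14 at or above 6.4 on the log2 scale, here called expressed, and 53 below it, here called dim. The classes were thus chosen by the level itself, and GPR135 was singled out because of its difference between the groups, so its values are given as a description, and its p-value, which the choice of the gene fixed, is not used. A level of 6.4 lies close to the median of all probe sets, 6.41, and is not a detection call. Probe sets differ in how strongly they bind, so a level ranks different genes only roughly.

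A G protein-coupled receptor crosses the membrane several times and passes a signal from outside the cell to a heterotrimeric G protein, which then acts on enzymes such as adenylyl cyclase or phospholipase C. Receptor kinases phosphorylate the active receptor and arrestins bind it, which ends the signal. Receptors with no agreed natural ligand are called orphans, and many of them are known mainly from brain, immune cells or endocrine tissue rather than from lung epithelium. Some proteins with a GPR symbol are not receptors of this kind but membrane proteins of the Golgi or the lysosome.

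Total RNA was profiled in 4 samples, of which 2 carried H2BK120R and 2 carried the empty vector. All of them carried a short hairpin RNA against LDOC1 (shLDOC1) and were grown with puromycin. H2BK120R is a histone H2B in which the lysine that takes monoubiquitin is replaced by arginine. According to the submitters' design text it lowered H2Bub1, the monoubiquitylated form, which LDOC1 depletion had raised, and the comparison asks which transcripts differ with it. The arrays did not measure H2Bub1. Cells with an unmutated H2B construct or with intact LDOC1 were not analysed here, and the sources used here do not give whether the lines were clones or pools. The labels do not say that replicates came from separate cultures, so p-values cover only the spread from array to array, and that spread may be technical.

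Array medians lay between 6.4 and 6.43, and Pearson correlations between arrays across probe sets were 0.990 to 0.994. LDOC1 had levels of 8.37 and 8.66 with H2BK120R, against 8.0 and 8.33 with vector, and both groups carry the hairpin, so this does not measure the depletion. Of 13 markers listed for A549 and epithelial cells, 12 were at or above 6.4, while EPCAM, an epithelial adhesion molecule, lay between 5.16 and 5.76. Mean levels reached 6.4 for 2 of 9 leukocyte, 1 of 7 fibroblast, 0 of 6 endothelial and 4 of 7 neuronal markers measured.

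Promoter sequences are shown first because their CpG content differed between expressed and dim members. The windows are those of RefSeq (GRCh38.p14), from 250 bases before to 50 after each gene's start, and 54 of the 67 genes had an entry. The first is that of GPR135, the gene with the largest difference between the groups, the second that of GPR157, an expressed gene that was lower with H2BK120R, and the third that of GPR174, the member with the lowest mean level. They lie at chr14:59465331-59465630, minus strand, at chr1:9129053-9129352, minus strand, and at chrX:79144438-79144737, plus strand. Capitals mark CpG dinucleotides, of which the windows hold 29, 43 and 5 in that order.
GPR135: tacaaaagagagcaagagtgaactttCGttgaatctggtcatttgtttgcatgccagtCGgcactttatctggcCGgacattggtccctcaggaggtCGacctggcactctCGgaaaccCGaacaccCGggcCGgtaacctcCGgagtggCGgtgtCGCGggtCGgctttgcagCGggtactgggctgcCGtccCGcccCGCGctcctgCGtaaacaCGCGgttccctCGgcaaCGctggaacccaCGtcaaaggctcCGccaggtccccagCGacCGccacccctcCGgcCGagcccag
GPR157: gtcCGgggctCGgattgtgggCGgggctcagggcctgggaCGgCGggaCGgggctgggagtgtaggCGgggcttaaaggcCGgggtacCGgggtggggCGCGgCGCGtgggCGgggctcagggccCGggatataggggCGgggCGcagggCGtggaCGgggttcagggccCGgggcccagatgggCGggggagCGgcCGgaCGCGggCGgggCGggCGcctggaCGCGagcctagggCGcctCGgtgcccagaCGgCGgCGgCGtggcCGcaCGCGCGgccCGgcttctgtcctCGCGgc
GPR174: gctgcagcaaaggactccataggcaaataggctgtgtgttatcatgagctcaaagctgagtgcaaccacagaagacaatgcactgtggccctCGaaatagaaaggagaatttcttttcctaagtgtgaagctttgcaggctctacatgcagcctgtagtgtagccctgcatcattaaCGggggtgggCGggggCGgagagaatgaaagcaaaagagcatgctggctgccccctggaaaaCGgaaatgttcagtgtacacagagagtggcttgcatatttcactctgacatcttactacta

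All 11 expressed members with an entry had at least 10 CpG dinucleotides in this window, with a median of 28 and a range of 19 to 51. Of the 43 dim members with an entry 17 reached 10, and the median was 7. Over all measured genes with an entry, 90.8% of those at or above 6.4 and 53.1% of those below it reached 10, so the same order holds outside the GPR genes. The motif GGGCGG, searched on both strands, was found in 10 of the 11 expressed windows and 17 of the 43 dim ones, and in 44.6% of all 27305 promoters in the table. Among measured genes it was found in 70.9% of those at or above 6.4 and 45.5% of those below. TATAAA, also on both strands, was found in 0 of the 11 and 6 of the 43, in 12% of all promoters, and in 5.61% and 14% of measured genes at or above and below 6.4. The cAMP response element TGACGTCA, which reads the same on both strands, occurred in 1 expressed window, that of GPR3, and in 1 dim window, against 1.98% of all promoters. In measured genes at or above and below 6.4 it occurred in 3.33% and 1.74%. CpG-rich windows also occurred among dim genes, such as GPR12 with 49 and GPR26 with 44. Across the 54 genes Spearman's rho between CpG count and mean level was 0.29, and it was 0.41 across 14250 measured genes. These values describe genes on the same 4 arrays, which are not independent of each other.

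**Figure D1:**
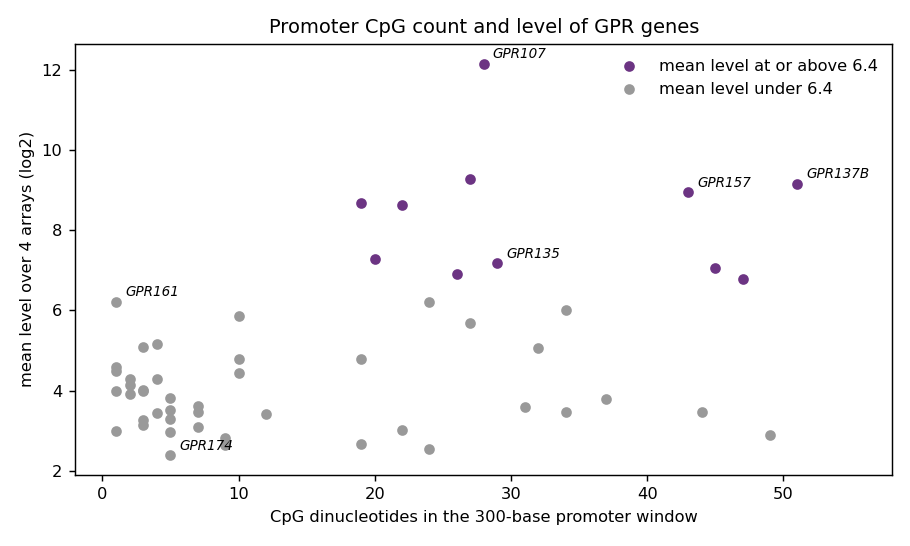
Mean level over 4 arrays (log2, vertical) against the number of CpG dinucleotides in the promoter window (horizontal), 1 point per GPR gene with an entry. All 11 expressed genes lie at 19 or more, and the dim genes spread from 1 to 49.

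Gene length also differed between the classes. The median length of the locus in RefSeq was 30.8 kb for the 14 expressed genes and 9.63 kb for the 53 dim ones. Over all measured genes it was 33.2 kb at or above 6.4 and 17.7 kb below. Many class A receptors have a short gene with few exons, whereas the Golgi and lysosome proteins do not belong to that class. Whether this bears on the difference in length was not tested.

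Of the 14 expressed genes, 6 belong to a group of membrane proteins outside the receptor classes, most of them of the Golgi or lysosome. These made up 6 of the 8 genes of that group measured, against 8 of the other 59 and 50.1% of all probe sets. The 6 include GPR89A and GPR89B, whose probe sets may each read both genes. GPR107, a protein of the trans-Golgi network that acts in endocytic traffic, had levels of 12.15 and 12.06 with H2BK120R, against 12.31 and 12.08 with vector. The groups overlapped, and the difference of -0.09 had a limma 95% interval of -0.40 to 0.22. GPR137, a lysosomal membrane protein that regulates mTORC1, was at 9.18 and 9.26 with H2BK120R and at 9.54 and 9.14 with vector, where the vector arrays enclosed the others. Its paralogue GPR137B was at 9.27 and 9.46 with H2BK120R, against 9.09 and 8.81 with vector. The mutant pair lay wholly above the vector pair, by 0.41 ± 0.20 (SE) between means, which does not pass (limma adjusted p = 0.745). The third paralogue, GPR137C, was dim at 6.12 and 6.55 with H2BK120R and 6.27 and 6.05 with vector.

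GPR89A and GPR89B are near-identical copies of the gene for a Golgi anion channel that regulates pH, so each probe set may read both. GPR89A had levels of 9.04 and 8.63 with H2BK120R, against 8.45 and 8.61 with vector, and the 2 groups were separated by only 0.02. GPR89B was at 8.94 and 8.68 with H2BK120R and at 8.68 and 9.32 with vector. The pair thus differed in opposite directions, by 0.30 ± 0.22 and -0.19 ± 0.24 (SE), and neither passed (limma adjusted p = 0.814 and 0.894). GPR180, a membrane protein outside the receptor classes, had 8.49 and 8.83 with H2BK120R, against 8.62 and 8.58 with vector, so the vector arrays lay inside the range of the mutant ones. GPR155, a lysosomal cholesterol sensor, was dim, with levels of 5.40 and 5.57 in H2BK120R cells and 5.22 and 5.55 in vector cells.

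The other 8 expressed genes encode receptors or candidate receptors. GPR135, a class A orphan, had levels of 7.83 and 7.79 with H2BK120R, against 6.54 and 6.50 with vector. Both groups were tight, with arrays 0.04 apart, and their means stood 1.29 apart, which is 2.45-fold if the base is 2. Its mean was 7.81 ± 0.03 with H2BK120R and 6.52 ± 0.03 with vector (SD, n = 2 each). By the size of its difference it ranked 1 of the 67 GPR genes, 2 of the 10754 probe sets at or above 6.4 and 22 of all 21448. The difference stayed between 1.27 and 1.31 when any 1 array was left out. With arrays 0.04 apart it could hardly move, so this adds no support. The gene was singled out for this difference, so its ranks describe that choice.

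GPR157, an orphan that in mouse is found on the primary cilium of neural progenitors, was at 8.71 and 8.50 with H2BK120R and at 9.48 and 9.08 with vector. The mutant pair lay wholly below the vector pair. The difference was -0.68 ± 0.21 (SE), and its limma adjusted p of 0.693 does not pass (unadjusted p = 0.00927). Leaving out vector replicate 1 gave -0.47 and leaving out H2BK120R replicate 2 gave -0.57, and in both fits the unadjusted limma p was above 0.05 (adjusted p = 0.804 and 0.998).

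GPR39, a zinc-sensing receptor, had levels of 7.06 and 7.22 with H2BK120R, against 7.47 and 7.33 with vector, again without overlap. The prosaposin receptor GPR37 was at 6.77 and 6.82 with H2BK120R and at 6.18 and 6.64 with vector. Their differences were -0.26 ± 0.25 and 0.39 ± 0.28 (SE), and neither passed (limma adjusted p = 0.854 and 0.817). The lower of the vector arrays set most of the GPR37 value, which was 0.15 without vector replicate 1.

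GPR3 raises cAMP without a ligand and holds the oocyte in meiotic arrest. It was at 7.22 and 7.01 with H2BK120R and at 7.03 and 6.95 with vector. GPR27, of the conserved SREB family of brain receptors, had 7.20 and 6.94 with H2BK120R, against 7.09 and 6.85 with vector. Neither gene's groups were separated. The SREB relatives GPR85 and GPR173 were dim, at mean levels of 3.26 and 2.65. The orphans GPR160 and GPR153 overlapped as well. GPR160 was at 6.97 and 6.81 with H2BK120R and at 6.83 and 7.02 with vector, and GPR153 at 7.24 and 6.39 with H2BK120R and at 6.87 and 6.66 with vector. GPR153 had the widest spread of the expressed genes within a group, 0.85 between the arrays with the mutant.

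**Figure D2:**
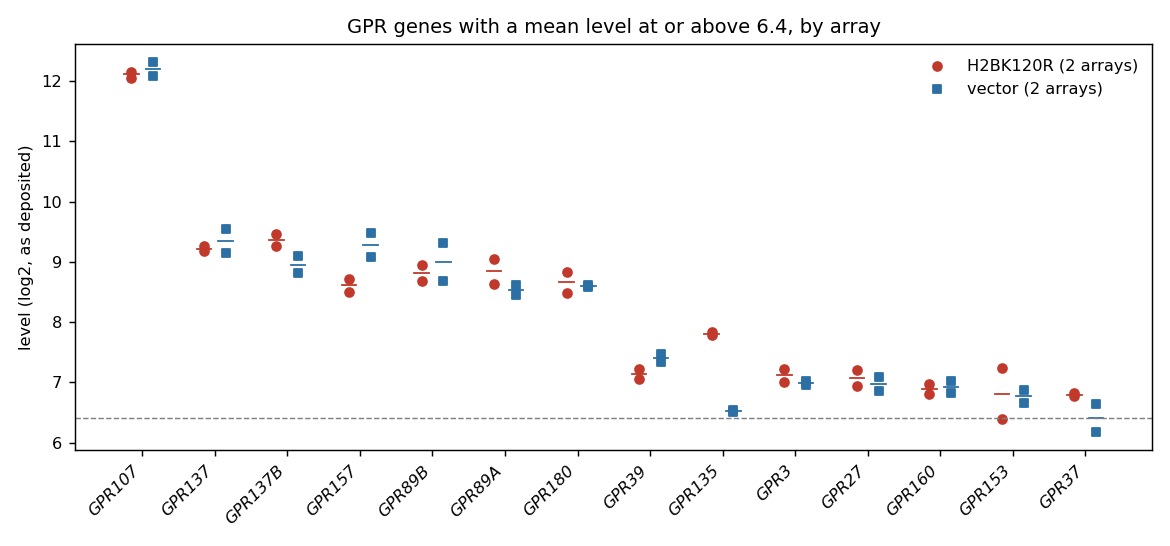
Level (log2, vertical) of the 14 expressed GPR genes in each array, with H2BK120R arrays as circles left of the vector arrays as squares, short lines for group means (n = 2 each) and a dashed line at 6.4. The group means of GPR135 stand 1.29 apart, and the groups of GPR157 are separated in the other direction.

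The threshold fell in a gap of the members' levels. Just above it were GPR27 at a mean of 7.02, GPR160 at 6.91, GPR153 at 6.79 and GPR37 at 6.60. Just below it were GPR137C at 6.25, GPR176 and GPR161 at 6.22 each and GPR75 at 6.02.

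Among the dim genes the largest differences were those of GPR83, GPR176 and GPR19. GPR176, an orphan that in mouse sets the pace of the circadian clock in the suprachiasmatic nucleus, was at 5.55 and 6.19 with H2BK120R and at 6.48 and 6.65 with vector. The mutant pair again lay wholly below the vector pair, with a difference of -0.69 ± 0.31 (SE) that does not pass in limma (unadjusted p = 0.0455, adjusted p = 0.745). The value was -0.38 without H2BK120R replicate 1, the lowest of the 4 arrays, and -1.01 without H2BK120R replicate 2.

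GPR19, an orphan, had levels of 5.75 and 5.26 with H2BK120R, against 4.84 and 4.79 with vector, and its groups did not overlap. GPR83, which binds a neuropeptide in mouse, was at 3.61 and 4.04 with H2BK120R and at 3.50 and 2.69 with vector. Their differences of 0.69 ± 0.31 and 0.73 ± 0.35 (SE) had a limma adjusted p of 0.745 each, and the unadjusted p was 0.0503 for GPR19 and 0.0597 for GPR83. The GPR83 value was 0.33 without vector replicate 2, and the GPR19 value was 0.45 without H2BK120R replicate 1.

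Receptors for lipids and metabolites, with related orphans, were all dim, 15 of 15 measured, with mean levels between 2.39 and 5.85. Their median difference was -0.01, and 7 were higher and 8 lower with H2BK120R. GPR17, known from oligodendrocyte precursors, was at 5.95 and 5.97 with H2BK120R, against 5.75 and 5.74 with vector. The groups were separated by 0.20 with arrays 0.02 and 0.01 apart, but the fit shares the spread of probe sets of like level, and the limma adjusted p was 0.898. GPR18, which binds a lipid amide, differed by 0.54 ± 0.32 and GPR119, which senses fatty acid amides in gut and islets, by -0.54 ± 0.44 (SE, limma adjusted p = 0.772 and 0.832). The oxysterol receptor GPR183 had levels of 4.42 and 4.04 with H2BK120R and 4.46 and 4.26 with vector, which overlapped.

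The acid-sensing receptors GPR4 and GPR65 were dim and lower with H2BK120R without overlap. GPR4 was at 4.37 and 4.73 with H2BK120R, against 5.07 and 5.04 with vector, and GPR65 at 4.39 and 4.54 with H2BK120R, against 4.60 and 4.83 with vector. Neither passed (limma adjusted p = 0.777 and 0.889). GPR132, a relative of theirs, overlapped, and its vector arrays at 4.07 and 2.74 were 1.33 apart, the widest vector pair of all members.

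GPR6 and GPR12, which like GPR3 raise cAMP without a ligand, were dim at mean levels of 3.03 and 2.90. All 3 genes had a difference above 0, between 0.12 and 0.52, and none passed. Among the ciliary genes, GPR161, which restrains Hedgehog signalling, was at 6.10 and 6.4 with H2BK120R and at 6.19 and 6.18 with vector. The class C orphans GPR158 and GPR179, partners of RGS proteins in neurons and retina, were dim and overlapped. GPR158 had the widest pair of all members, with 4.38 and 2.93 in the arrays with H2BK120R, against 3.96 and 3.92 with vector. GPR143, the melanosome receptor of pigment cells, had a mean level of 2.68. Of the 7 genes for peptide, zinc and prosaposin receptors, 2 were expressed and the other 5 had lower values, such as GPR75 at 6.14 and 5.92 with H2BK120R and 6.11 and 5.90 with vector.

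Orphans of class A known from brain and other tissues formed the largest group, with 22 members, of which GPR135, GPR160 and GPR153 were expressed. The group's median difference was 0.02, and 12 genes were higher and 10 lower with H2BK120R. GPR52, a receptor of the striatum, was at 5.63 and 5.15 with H2BK120R and at 5.17 and 4.35 with vector, which overlapped narrowly. GPR162 was at 3.65 and 4.34 with H2BK120R, against 4.63 and 4.48 with vector, and its groups did not overlap. GPR139, an orphan of the brain, had a difference of 0.03.

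**Figure D3:**
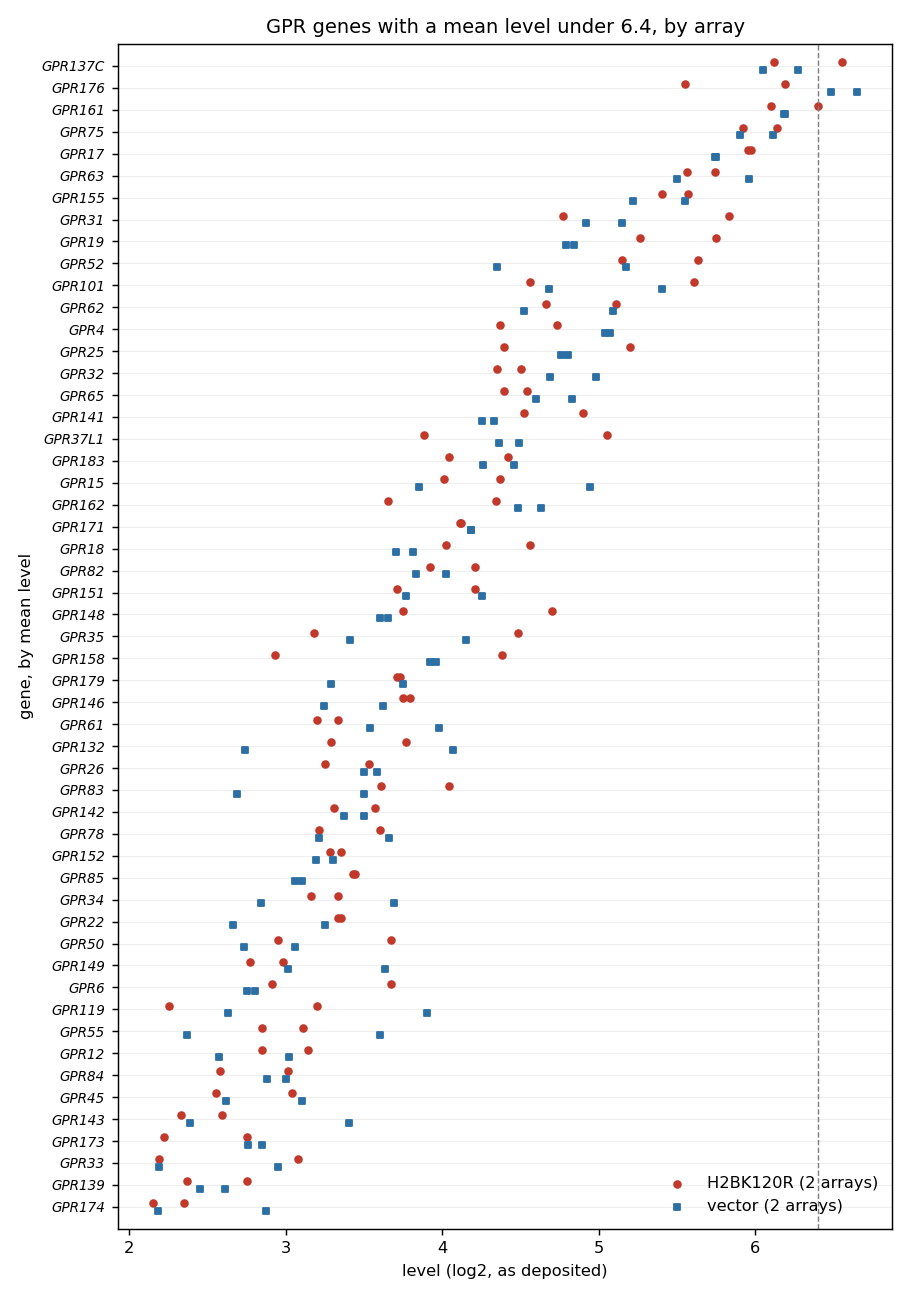
Level (log2, horizontal) of the 53 dim GPR genes in each array, sorted by mean level, with H2BK120R arrays as circles above the vector arrays as squares and a dashed line at 6.4. Pairs of one group are often as far apart as the groups are, as for GPR158 and GPR132.

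Over the whole family, 0 of the 67 genes passed an adjusted p of 0.05 in limma, as did 0% of the 21448 probe sets. Leaving out GPR135, chosen for its difference, an unadjusted p under 0.05 was reached by 2 of the other 66, which were GPR157 and GPR176, or 3.03%, against 6.7% of all probe sets. Both arrays of one group lay beyond both of the other for 24 of these 66, 13 higher and 11 lower, or 36.4%, against 36.5% of all probe sets. With GPR135 counted the share by p was 4.48%. The background was 5.06% for probe sets below 6.4 and 8.33% for those at or above it. Leaving out GPR135 removes a gene under 0.05 from the members but not from the background. The share by p is therefore not read as a result about the family, and the share without overlap was near the background. For any 1 gene the smallest two-sided p of an exact permutation test is 0.333 in this design.

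With H2BK120R 38 members were higher and 29 lower, where 49.9% of all probe sets were higher. Over the expressed members the median difference was 0.06, with 8 higher and 6 lower, and 0.05 without GPR135. All probe sets at or above 6.4 had a median of 0.03, with 54.4% higher. Over the dim members the median was 0.03, with 30 higher and 23 lower, against -0.04 and 45.3% higher over all probe sets below 6.4. Leaving out H2BK120R replicate 1 put the expressed median at -0.06 and leaving out H2BK120R replicate 2 put it at 0.14, so its sign depended on which array was kept. Among other receptor families of mostly low level, 21 bitter taste receptor (TAS2R) genes had a median of 0.20 and 349 olfactory receptor (OR) genes a median of -0.11. At or above 6.4 were 3 of the 21 TAS2R and 1 of the 349 OR genes. The differences between these medians were not tested.

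Precision was set by the number of arrays. The limma 95% interval extended by a median of 0.54 to either side for the expressed members and 0.68 for the dim ones, so differences smaller than these could not be told from 0 in a typical member. The gap between arrays of one group had a median of 0.20 with H2BK120R and 0.22 with vector for the expressed members. For the dim members the medians were 0.38 with H2BK120R and 0.23 with vector, against 0.29 and 0.34 over all probe sets below 6.4.

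**Figure D4:**
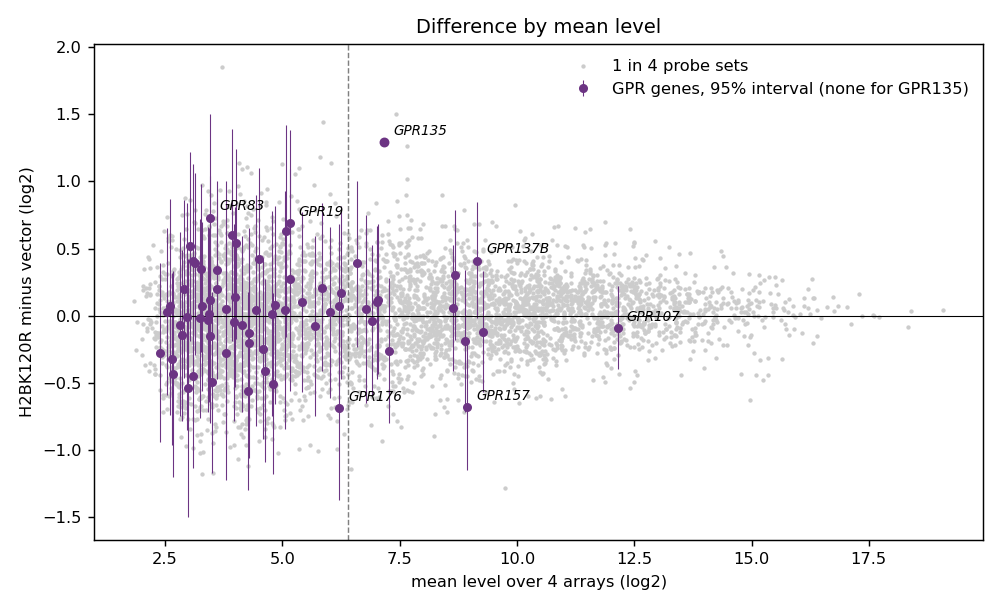
Difference between H2BK120R and vector (log2, vertical; positive is higher with H2BK120R) against mean level (log2, horizontal) for the 67 GPR genes, with limma 95% intervals except for GPR135, over 1 in 4 of all probe sets in grey. GPR135 at 1.29 stands apart from the other members, which lie between -0.69 and 0.73.

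The G protein subunits and effectors that such receptors use were measured on the same arrays. Of the alpha subunits 7 of 16 were higher and 9 lower with H2BK120R, the median difference being -0.06, and 0 passed. GNAQ, the alpha subunit that activates phospholipase C, was at 11.45 and 11.71 with H2BK120R, against 11.27 and 10.92 with vector, without overlap. GNAT2, the cone transducin subunit, was at 5.99 and 6.39 with H2BK120R and at 6.81 and 6.95 with vector. Their differences were 0.48 ± 0.17 and -0.69 ± 0.28 (SE), with limma adjusted p-values of 0.722 and 0.745. The beta and gamma subunits had 7 of 17 higher and 10 lower, with a median of -0.07, and GNG12 and GNG11 differed in opposite directions, by 0.30 ± 0.13 and -0.49 ± 0.22 (SE, limma adjusted p = 0.745 each).

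On the effector side, the IP3 receptor gene ITPR2, which releases calcium from the endoplasmic reticulum, was at 9.91 and 9.72 with H2BK120R, against 8.82 and 9.42 with vector. The mutant pair lay above the vector pair, by 0.69 ± 0.22 between means (SE, limma adjusted p = 0.693). The list of phospholipase C beta and IP3 receptor genes had 4 of 7 higher, with a median of 0.04. Adenylyl cyclases and cAMP effectors had 12 of 18 measured genes higher and 6 lower, with a median of 0.04. The cAMP and CREB target genes had a median of 0.05, with 8 of 12 higher and 4 lower. NR4A1, a nuclear receptor induced by cAMP, was at 14.45 and 14.53 with H2BK120R and at 13.99 and 14.18 with vector. Its difference of 0.41 ± 0.12 (SE) had a limma adjusted p of 0.678.

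Proteins that end receptor signals were also listed. RGS proteins, which speed the G protein back to its inactive state, had 14 of 19 measured genes lower and 5 higher, with a median of -0.15. Only 7 of the 19 were at or above 6.4, and of all probe sets below 6.4, 45.3% were higher, with a median of -0.04. A shift of the list was not tested. RGS11, with the smallest p of these, was at 5.20 and 5.34 with H2BK120R, against 5.66 and 6.31 with vector, a difference of -0.71 ± 0.32 (SE, limma adjusted p = 0.745). Receptor kinases and arrestins had 6 of 9 lower and 3 higher, with a median of -0.12. Accessories of receptor trafficking had 8 of 14 higher and 6 lower, with a median of 0.16. Over all lists 0 genes passed an adjusted p of 0.05, and between 0 and 2 genes per list reached an unadjusted p under 0.05, or 0% to 14.3% of a list's measured genes, against 6.7% of all probe sets. The median difference over all probe sets was 0.00.

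**Figure D5:**
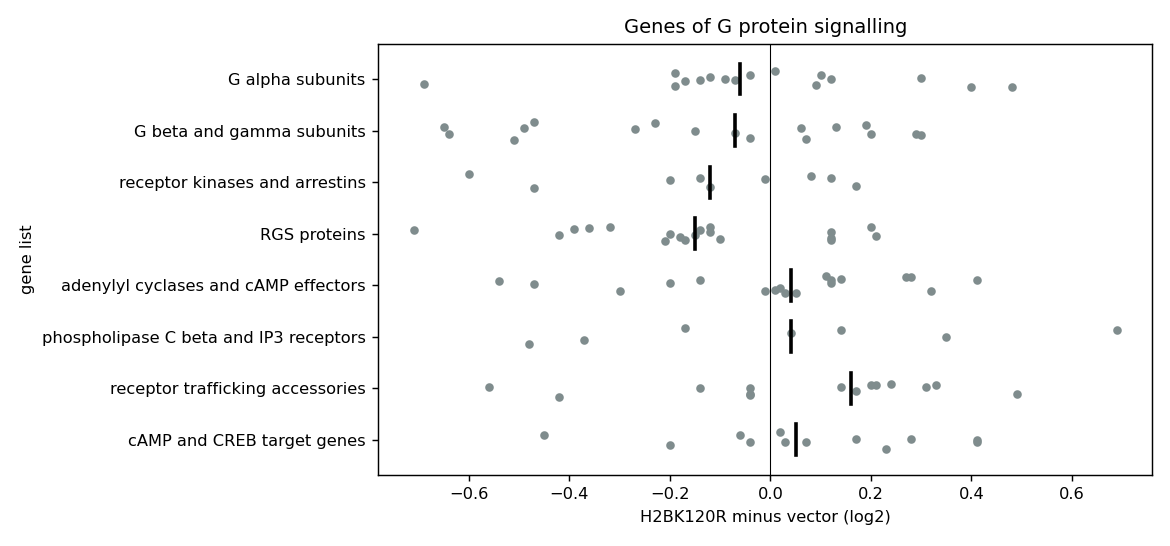
Difference between H2BK120R and vector (log2, horizontal; positive is higher with H2BK120R) of each measured gene in 8 lists of G protein signalling, 1 point per gene, with a thick line at the list's median. The medians lie between -0.15 for the RGS proteins and 0.16 for the trafficking accessories, and the points of every list lie on both sides of 0.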

How the data were processed

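Total RNA of 4 samples, grouped by their titles, was hybridized to Affymetrix arrays as labelled single-stranded cDNA, per the labels' protocols. The authors deposited 1 log2 value per probe set and array, normalized between arrays; the base of 2 and the normalization are inferred from the range and the near-equal medians. Per the submitters' processing notes MAS5 was used, with no version named; background correction and detection calls are likewise unstated in the sources. Precision is limited by the number of arrays.

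Gene names came from GEO's platform annotation and were checked by gene ID against RefSeq (GRCh38.p14), where all 67 matched. The symbols GPR15LG, a ligand, and GPR75-ASB3 and GPR158-AS1 were left out. The H2BK120R arrays were set against the vector arrays in limma 3.58.1 (R 4.3.3, eBayes moderation with trend), two-sided, with Benjamini-Hochberg adjustment over 21448 probe sets. The fit had 2 residual and 8.95 prior degrees of freedom. It was also run on simulated data with independent noise in each array, which does not show how it behaves where replicates are technical. Promoter features were counted in Python 3.11.15 and figures drawn with matplotlib 3.10.9.

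The members, lists and role groups were chosen with earlier results of these data known, so no test over a list was made. All members may be named; values in every array are given for GPR135, the members with the highest levels, those with an unadjusted p under 0.05, those next to 6.4 and near-identical pairs, and further members shown to describe their role group were chosen after their values were seen. Of each partner list up to 3 genes with the smallest p could be named. Alternatives were other normalizations, filters, variance settings, thresholds, symbol rules, a replicate block and leaving out each array.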

Additional observations from a re-analysis of the deposited data

How the results depend on the processing

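At a limma adjusted p of 0.05, 0 probe sets were called under each setting tried, while 1437 had an unadjusted p under 0.05 as reported. The GPR genes past an unadjusted 0.05 numbered 3 as fitted, which counts GPR135 although it was chosen for its difference. The share of all probe sets was 6.7%. After quantile normalization GPR19 and GPR83 were added, which gave 5 genes, against 6.8% of all probe sets. Under the other fits that kept all 4 arrays and all 67 genes there were 3 or 4 genes. The share of all probe sets tested then ran from 5.93% without the trend to 8.61% with the replicate block. The 2 filters on level left fewer members. With the dimmest 25% left out there were 4 of 35, against 7.23% of all probe sets tested. With the dimmest 50% left out there were 2 of 14, against 8.42%. All these counts include GPR135. GPR19, at an unadjusted limma p of 0.0503 as reported, was also added with the dimmest 25% left out, with single-symbol probe sets, without the trend, with robust estimation, with the block and without H2BK120R replicate 2. With 1 array left out, the genes past that level changed with the array, and neither GPR157 nor GPR176 was among them in every such fit. The difference of GPR157 then lay between -0.88 and -0.47, and that of GPR176 between -1.01 and -0.38. These fits take the lone array to vary as much as the pair in the other group. The median difference of the expressed genes lay between -0.06 (without H2BK120R replicate 1) and 0.14 (without H2BK120R replicate 2), and that of the dim genes between -0.03 and 0.09. With the replicate number as a block the count was 4, and the medians stayed at 0.06 and 0.03. The correlation of same-numbered deviations was 0.14, and the labels do not say that numbers mark shared cultures, so no pairing was assumed. Leaving out GPR135, a choice made after seeing the data, gave 2 genes and a median of 0.05. With the dimmest 50% left out no dim member was tested. The change of pseudocount does not apply to log2 values. For these shifts the cause was not tested.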

Other observations

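The protein-coding genes beside GPR135 on chromosome 14 were looked up after its value had been seen, and each had a smaller difference. GPR135 ranked 22 of 21448 probe sets by size, so nearly any gene beside it would have had a smaller one. DAAM1, the neighbour on one side and a formin of the Wnt planar polarity pathway, was at 6.25 and 6.37 with H2BK120R and at 6.39 and 6.15 with vector. L3HYPDH, the neighbour on the other side and an enzyme of hydroxyproline breakdown, was at 9.17 and 9.41 with H2BK120R, against 9.27 and 9.04 with vector. The groups of both genes overlapped, with differences of 0.04 ± 0.28 and 0.14 ± 0.20 (SE, limma adjusted p = 0.984 and 0.910). Among the further neighbours DACT1 differed by 0.32 ± 0.35 and KIAA0586, a centrosomal protein, by 0.28 ± 0.19 (SE). CCDC175 differed by 0.23 ± 0.32 and JKAMP by -0.14 ± 0.17 (SE), and none of them passed.

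Of the symbols left out of the family, GPR75-ASB3, a readthrough of GPR75 and its neighbour, was at 9.25 and 9.14 with H2BK120R and at 8.92 and 9.20 with vector, while GPR75 itself was dim. Whether its probe set also reads transcripts of the neighbour alone was not tested, so this level need not be that of the readthrough.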
